A study of Mus musculus with 8 samples.

Results

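The transcription factors that drive the enteroendocrine lineage were compared between mice that kept and mice that lost Pdx1 in the gut epithelium, in the first stretch of the small intestine. The set comprised 9 genes: Neurog3, Neurod1, Insm1, Rfx6, Nkx2-2, Isl1, Pax4, Pax6 and Etv1. Members were taken by symbol, using every probe set whose platform annotation gave that symbol alone. This reached 7 genes on 15 probe sets, out of 18193 genes measured in the series. Rfx6 was not analysed here, since no probe set was annotated to it. The 3 probe sets annotated to Etv1 also carried the symbol Gm5454, so Etv1 was not analysed here either. None of the 7 measured factors passed the test for a change: 0 of 15 probe sets passed at an adjusted p under 0.05 in limma, while 0.0422% of all probe sets did.

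Enteroendocrine cells are the hormone-secreting cells of the gut epithelium. They arise from crypt progenitors that escape Notch signalling, pass through a brief stage of Neurog3 expression, and then switch on a succession of factors that fix the hormone each cell makes. Most of these factors also work in the endocrine pancreas, where Pdx1 is itself a central regulator, and several are used by neurons.

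The knockout mice carried the genotype Pdx1flox/flox;VilCre. Both of their Pdx1 alleles had loxP sites around exon 2, and a Cre transgene under a 12.4 kb fragment of the villin 1 promoter removed that exon in the intestinal epithelium. The controls were Pdx1flox/flox: they carried the same loxP-flanked alleles and no Cre, so effects of the transgene itself and of Pdx1 loss cannot be told apart. All 8 animals were males of 6 months, each labelled a brother of the same litter and fed a standard diet of 4.5% fat, with 4 in each group and 1 array for each animal. RNA came from whole tissue of the 5 cm of intestine next to the pylorus, and in such bulk tissue fewer cells of a type and less RNA per cell cannot be told apart.

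The labels of the groups were checked on the targeted gene. Pdx1 read 8.52 ± 0.36 in the control and 5.93 ± 0.25 in the knockout on its brighter probe set (log2 units, SD, n = 4 each). Whether that probe set covers the deleted exon was not tested. Array medians lay between 5.23 and 5.27, and of the 45037 probe sets tested 19 were called. Marker lists were summarised as scores, the mean log2 deviation of a list's genes from their means over the 8 samples. The exocrine pancreas score (10 genes) ran from -1.19 in control 3 to 0.90 in control 4. The smooth muscle score (9 genes) was -0.23 to -0.058 in the controls and -0.13 to 0.32 in the knockouts, with 9 of 9 genes above 0 and 0 called. Of 7 enterocyte genes 6 were above 0 and 0 were called. For 4 of these 7 (57.1%) the groups did not overlap, against 4.43% of all probe sets. Fabp1, Fabp2 and Vil1 were higher in the knockouts and Alpi lower. The part of these shifts in the results was not tested. Knockout 3 held the lowest value of the 8 samples in 18.0% of all probe sets, so the members' changes that rest on it are given with and without it.

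The promoters of Neurog3 and Neurod1 are shown because these bHLH factors stand at the start of the cascade and are the brightest-reading bHLH members, described in most detail further on. The 250 bases before each start site are from RefSeq on build GRCm38.p6, written 5′ to 3′ on the strand of the gene. Capitals mark the E-box, CANNTG, the hexamer that bHLH dimers bind, which reads the same on both strands.
Neurog3, chr10:62132840-62133089, plus strand: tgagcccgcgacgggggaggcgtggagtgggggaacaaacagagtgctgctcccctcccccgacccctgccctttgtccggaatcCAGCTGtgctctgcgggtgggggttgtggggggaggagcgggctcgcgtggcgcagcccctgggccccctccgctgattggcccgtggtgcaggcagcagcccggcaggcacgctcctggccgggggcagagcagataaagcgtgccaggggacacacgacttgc
Neurod1, chr2:79456637-79456886, minus strand: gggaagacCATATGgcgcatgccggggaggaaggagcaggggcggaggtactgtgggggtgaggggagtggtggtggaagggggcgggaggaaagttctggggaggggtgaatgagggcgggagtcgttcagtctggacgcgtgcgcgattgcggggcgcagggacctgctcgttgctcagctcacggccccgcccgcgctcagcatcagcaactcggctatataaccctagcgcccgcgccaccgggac

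Each of these windows held a single E-box. That of Neurog3 reads CAGCTG and begins 165 bases before the start, and that of Neurod1 reads CATATG and begins 242 bases before it. Among the promoter windows of all genes in the table, 66.2% held at least 1 such hexamer, so its presence does not set these promoters apart. RefSeq windows were found for 7 of the 9 members, and 6 of their 9 windows held an E-box. The core TAAT, which homeodomain proteins such as Pdx1 bind, was searched on both strands. It was found in 7 of the 9 windows, against 54.9% of all windows, but in neither of the printed ones. The N-box CACNAG, the site of Hes repressors, was in 3 of the 9 windows on either strand, against 36.7% of all windows. A match describes letters and not a bound site, and a missing match says only that these letters are not in this window.

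Neurog3 is the bHLH factor that commits a progenitor to the endocrine fate. Its brighter probe set, 1432034_at, read 6.57, 6.49, 6.61 and 6.91 in controls 1 to 4. In knockouts 1 to 4 it read 6.60, 6.45, 5.84 and 6.75. Of the knockouts, 1, 2 and 4 lay within or just below the range of the controls, and knockout 3 lay below every other sample. Control animals averaged 6.65 ± 0.18 and knockout animals 6.41 ± 0.40 (SD, n = 4 each). The log2 difference was -0.24 ± 0.18 (standard error), and it did not pass (limma, adjusted p = 0.810). The 95% interval of the change ran from -0.63 to 0.15, that is from 1.55-fold lower to 1.11-fold higher. Without knockout 3 the change was -0.051. The dimmer Neurog3 probe set, 1422312_a_at, had a change of -0.058 and was likewise lowest in knockout 3, at 4.03 against 4.20 to 4.44 in the controls. Without that sample its change was 0.018.

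Neurod1 is switched on by Neurog3 and drives exit from the cell cycle and hormone expression. On its brighter probe set, 1426413_at, controls 1 to 4 read 6.31, 5.96, 5.93 and 6.28, and knockouts 1 to 4 read 6.16, 5.98, 5.66 and 6.53. The knockouts held both the lowest value, in knockout 3, and the highest, in knockout 4, and all 4 controls lay inside the range of the knockouts. The log2 change was -0.036 with a 95% interval from -0.41 to 0.34 (adjusted p = 0.978 in limma). Leaving out knockout 3 turned it to 0.10. The dimmer probe set, 1426412_at, had a change of -0.16 and read 4.93 in knockout 3 against 5.28 to 5.97 in the controls. It too turned, to 0.032, when that sample was left out.

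**Figure D1:**
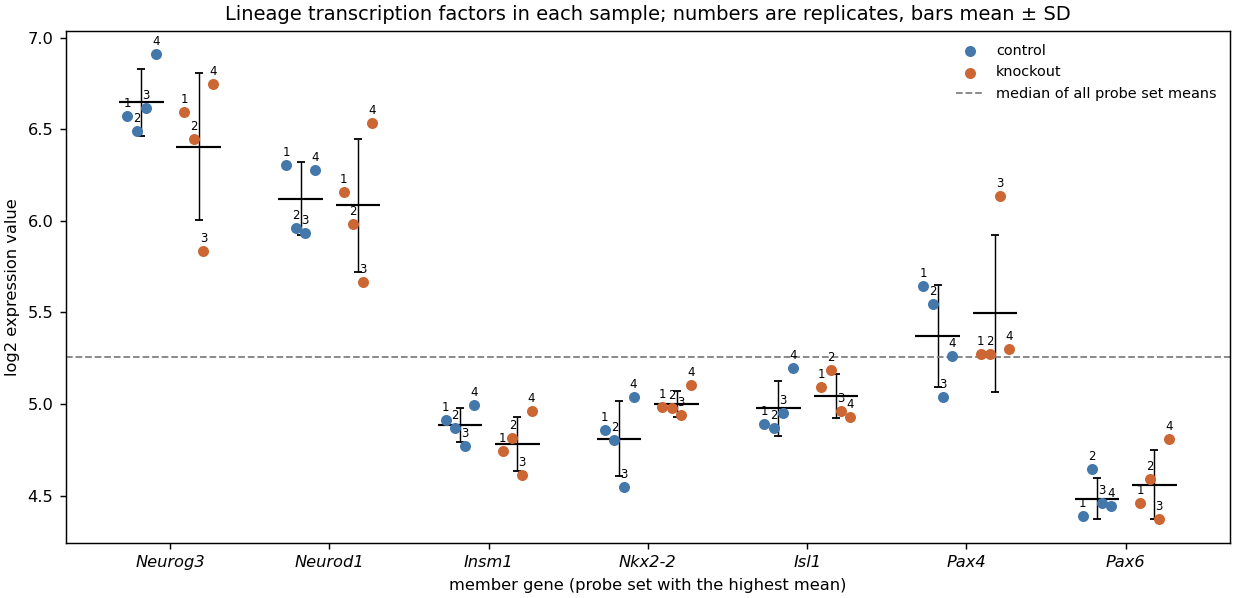
Log2 expression value (y axis) of the 7 measured factors (x axis), each on its probe set with the highest mean, in 4 control (blue) and 4 knockout (orange) mice; digits beside the points are replicate numbers, horizontal bars are group means, whiskers are the SD, and the dashed line is the median of all probe set means, 5.25. The groups overlap for every gene, knockout 3 is lowest for Neurog3 at 5.84 and Neurod1 at 5.66, and the same sample is highest for Pax4 at 6.14; heights should not be compared between genes, since probe sets differ in how brightly they read.

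Insm1 is a zinc finger repressor that acts beside Neurod1 in endocrine differentiation. Its brighter probe set, 1421399_at, read between 4.77 and 4.99 in the controls and between 4.61 and 4.96 in the knockouts. The means of 4.89 ± 0.093 and 4.78 ± 0.15 gave a log2 change of -0.10 (SD, n = 4 each), which did not pass (limma, adjusted p = 0.838). The interval of -0.30 to 0.088 spans 0, and without knockout 3 the change was -0.047. Its dimmer probe set had the opposite sign, 0.068, so the direction for Insm1 depended on the probe set.

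Of the homeodomain factors, Nkx2-2 had the smallest adjusted p among the probe sets that stand for the 7 genes. Nkx2-2 directs the choice between enteroendocrine subtypes. Its only probe set, 1421112_at, read 4.86, 4.80, 4.54 and 5.04 in controls 1 to 4 and 4.98, 4.98, 4.94 and 5.10 in knockouts 1 to 4. All knockouts lay above controls 1, 2 and 3, and control 4 lay above knockouts 1, 2 and 3, so the groups overlapped through a single control. The change of 0.19 (95% interval -0.030 to 0.41) did not pass (adjusted p = 0.739 in limma). It was 0.10 without control 3, the lowest sample, and 0.27 without control 4, the highest control. With values below 5 set to 5 it was 0.016, but only control 4 and knockout 4 read above 5, so little of the change could remain. Isl1, a LIM homeodomain factor needed for several hormone cell types, read 4.98 ± 0.15 in the control and 5.04 ± 0.12 in the knockout on its brighter probe set, 1422720_at (SD, n = 4 each). The change was 0.067 and did not pass (limma, adjusted p = 0.910). The other Isl1 probe set, 1450723_at, had -0.12, with knockout 3 lowest at 4.27 and control 4 highest at 5.11. Without knockout 3 that probe set had 0.0022.

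The paired box factors Pax4 and Pax6 act in the specification of hormone cell subtypes. Pax4, on its only probe set 1451598_at, read 5.65, 5.54, 5.04 and 5.26 in controls 1 to 4 and 5.27, 5.27, 6.14 and 5.30 in knockouts 1 to 4. Here knockout 3 was the highest of the 8 samples, the reverse of its place for Neurog3 and Neurod1, while knockouts 1, 2 and 4 lay close together and inside the control range. The change was 0.12 (95% interval -0.33 to 0.57; adjusted p = 0.930 in limma), and -0.090 without knockout 3. The exocrine score in knockout 3 was 0.54, against -0.31 to -0.25 in the other knockouts. Its part in the Pax4 value was not tested.

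Pax6 was covered by 5 probe sets, all with means below the median of all probe sets, from 3.22 to 4.52. The brightest, 1456342_at, averaged 4.48 ± 0.11 in control and 4.56 ± 0.19 in knockout animals (SD, n = 4 each), a difference of 0.074 that did not pass (limma, adjusted p = 0.910). The others had -0.086, -0.086, 0.19 and -0.0090. Knockout 3 was the lowest sample on 1456342_at and on 1437816_at, which had -0.086. Without it their changes were 0.14 and -0.028. The probe set at 0.19, 1425960_s_at, was the 1 of 15 member probe sets with an unadjusted p under 0.05, a level that 7.13% of all probe sets reached. Its mean of 3.44 put it at percentile 11.8 of all probe set means, and its adjusted p was 0.671 in limma.

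Over the whole set, 9 of 15 changes were below 0, with a median of -0.036, beside 22512 of all 45037 probe sets below 0 and a median of 4.75e-05. Without knockout 3, 6 of 15 were below 0 and the median was 0.018. In 0 of 15 were the knockout and control values separated, while 4.43% of all probe sets had groups that did not overlap. Each 95% interval bounds the change of its own probe set, and the 15 intervals do not cover the set jointly. Over the 15 probe sets the lowest end was -0.63, a 1.55-fold fall, and the highest was 0.57, a 1.49-fold rise. By comparison Gip, the incretin hormone of the K cells that this lineage produces, fell by 2.64 with an interval from -2.99 to -2.28 (adjusted p = 2.01e-04 in limma). That interval lay wholly below those of the member probe sets, although the difference between the changes was not itself tested. Gip also read brighter, with a mean of 10.09 against 3.22 to 6.53 for the member probe sets.

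Only 4 of the 15 member probe sets, those of Neurog3 (the brighter), Neurod1 (both) and Pax4, had means above the median of all probe sets. The deposited values hold no detection calls. A dim probe set can carry a large share of background, which would shrink a log2 change. The intervals for Insm1, Nkx2-2, Isl1, Pax6 and the dimmer Neurog3 probe set therefore bound the change in the reading and may understate that in the transcript. The median, 5.25, is not a detection limit. Pax4, with a mean of 5.43, and the dimmer Neurod1 probe set, with 5.59, lay just above it, so the same may hold for them.

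**Figure D2:**
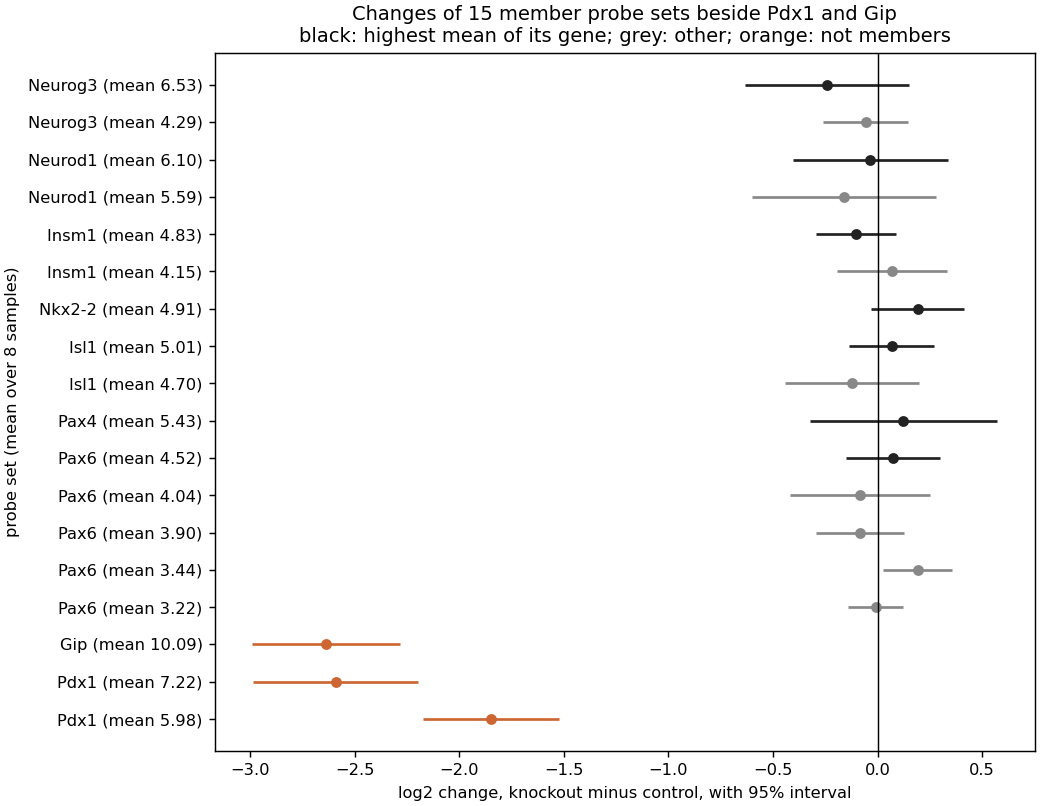
Log2 change, knockout minus control (x axis), with its 95% interval from limma for each member probe set (y axis, labelled with its mean over the 8 samples), n = 4 per group; black marks the highest mean of a gene, grey the other probe sets, and orange Pdx1 and Gip, which are not members. The changes of the 15 member probe sets lie between -0.24 and 0.19, and only the interval of 1 dim Pax6 probe set leaves out 0, while Gip and both Pdx1 probe sets lie at -1.85 or lower.

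Knockout 3 was the lowest of the 8 samples on 8 of 15 member probe sets (53.3%), against 18.0% of all probe sets. Control 4 was the highest on 6 of 15 (40.0%), against 15.9% of all probe sets, and knockout 4 on 5 of 15 (33.3%), against 6750 of all 45037 probe sets. On the probe sets that stand for the 7 genes control 4 and knockout 4 were each highest on 3, so the high end was shared by a control and a knockout. These counts were looked up after the values had been seen, and probe sets of the same gene are not independent.

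Knockout 3 and control 4 were also at the ends for the hormones. The list of enteroendocrine hormones and granule proteins, taken without Gip, held 19 measured genes and had its lowest score, -0.41, in knockout 3 and its highest, 0.38, in control 4. The other 6 samples lay between -0.046 and 0.083. With Gip included, 18 of 20 hormone and granule genes were below 0, but without knockout 3 the count was 10 of 20. Knockout 3 was the lowest sample on 14 of these 20 (70.0%), against 18.0% of all probe sets. Pcsk1 was instead highest in knockout 3, at 6.92, and Gast, Pyy, Ghrl, Cpe and Scgn were lowest in other samples. Tph1, which makes serotonin in enterochromaffin cells, read 6.64 in knockout 3 and 7.39 to 7.83 in the other 7 samples. The somatostatin gene Sst read 8.18 in knockout 3 against 8.83 to 8.98 in the other knockouts and 8.996 to 9.53 in the controls, so that its groups did not overlap. Its change of -0.61 did not pass (limma, adjusted p = 0.561) and was -0.43 without knockout 3.

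To describe how far the readings moved together, 27 relations across the 8 samples were computed with exact permutation tests over all pairings, two-sided. Both groups were pooled without removing the group means, so a difference between the groups enters r, rho and their p. They were 5 between the probe sets with the highest means of the same gene, 1 between Neurog3 and Neurod1, and 7 for each of 3 marker lists. The 2 probe sets of Neurod1 had Pearson's r = 0.82 (exact permutation p = 0.0107, adjusted p = 0.0723) and Spearman's rho = 0.74 (exact permutation p = 0.0458, adjusted p = 0.173). Those of Neurog3 had r = 0.82 (exact permutation p = 0.0268, adjusted p = 0.103) and rho = 0.67 (exact permutation p = 0.0831, adjusted p = 0.224). The brighter pair of Pax6 probe sets had only r = 0.32 (exact permutation p = 0.444) and rho = 0.17 (exact permutation p = 0.703), and the other Pax6 pairs were not compared. Between Neurog3 and Neurod1, r was 0.80 (exact permutation p = 0.0175, adjusted p = 0.0786) and rho 0.60 (exact permutation p = 0.132, adjusted p = 0.325). Without control 4 and knockout 3, the samples farthest from the Neurog3 median, r was 0.76.

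Neurog3 followed the hormone and granule score without Gip, with r = 0.93 (exact permutation p = 0.00325, adjusted p = 0.0439) and rho = 0.90 (exact permutation p = 0.00456, adjusted p = 0.123). Without control 4 and knockout 3, r fell to 0.44, so the relation rests on those samples. Neurod1 had r = 0.62 with the same score (exact permutation p = 0.0863, adjusted p = 0.194) and rho = 0.50 (exact permutation p = 0.216, adjusted p = 0.410), and r = 0.10 without that pair. Insm1 had r = 0.76 (exact permutation p = 0.0366, adjusted p = 0.124) and rho = 0.48 (exact permutation p = 0.243, adjusted p = 0.410), and r turned to -0.41 without the pair. Pax4 ran the other way, with r = -0.73 (exact permutation p = 0.0488, adjusted p = 0.147), rho = -0.57 (exact permutation p = 0.151, adjusted p = 0.340) and r = -0.36 without the pair. Against the enteric neuron score Neurog3 had r = 0.92 (exact permutation p = 0.00134, adjusted p = 0.0362), rho = 0.76 (exact permutation p = 0.0368, adjusted p = 0.173) and r = 0.68 without the same pair. Neurod1 had r = 0.82 with the neuron score (exact permutation p = 0.0147, adjusted p = 0.0786) and rho = 0.86 (exact permutation p = 0.0107, adjusted p = 0.145), and r = 0.89 without the pair, so this relation did not rest on those samples. The neuron score was lowest in knockout 3 at -0.16 and highest in control 4 at 0.15. Several genes of the neuron list, such as Snap25, Uchl1 and Tubb3, are also known in enteroendocrine cells. Of these, Uchl1 was lowest in knockout 3 at 5.91 and highest in control 4 at 6.54. Snap25 was lowest in control 2 at 5.74, and Tubb3 was highest in control 3 at 5.52 and lowest in knockout 4 at 5.17. The part of such genes in these relations was not tested. Pearson's r passed after adjustment in 2 of the 27 relations and Spearman's rho in 0. The labels give no batch, so no relation could be computed within one.

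The pancreatic islet score (6 genes) varied far more than the members did, through some of its genes. The islet score was 1.97 in control 4 and 0.54 in knockout 2, and between -0.85 and 0.34 in the other 6 samples. The insulin gene Ins2 read 13.00 in control 4, 10.46 in knockout 2 and 6.62 in control 3. Iapp and Ppy were also highest in control 4, at 10.44 and 8.95, and next in knockout 2, at 7.76 and 6.94. The rest of the list did not vary in this way. G6pc2 and Slc30a8 stayed between 3.16 and 3.92. Ttr read 9.85 in control 4 but 8.56 in knockout 2, and was lowest in knockout 3 at 7.87. Its groups did not overlap. The Ttr change of -0.72 did not pass (limma, adjusted p = 0.625) and was -0.50 without knockout 3. Insm1 had r = 0.59 with the islet score (exact permutation p = 0.124, adjusted p = 0.240) and rho = 0.71 (exact permutation p = 0.0576, adjusted p = 0.173), and Isl1 had r = 0.64 (exact permutation p = 0.0772, adjusted p = 0.189) and rho = 0.29 (exact permutation p = 0.501, adjusted p = 0.751). Without control 4 and knockout 2 these r were 0.47 and -0.46. With the islet score as a covariate 0 of 15 member probe sets were called. That count was also 0 without the covariate and so could not fall. The part of islet RNA in the members' values was not tested.

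**Figure D3:**
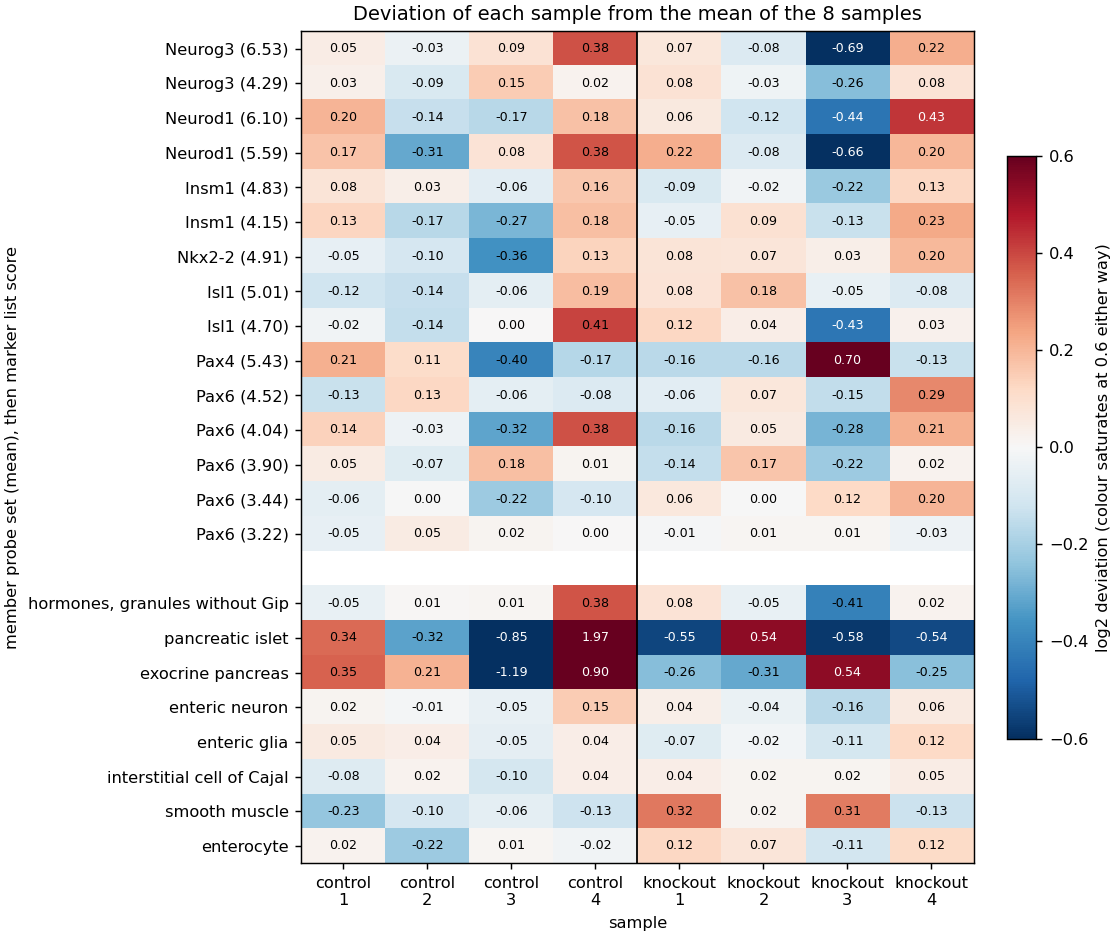
Log2 deviation of each sample (x axis) from the mean of the 8 samples, for the 15 member probe sets (upper rows, with their means) and for 8 marker list scores (lower rows); colour and printed value give the deviation, and the vertical line parts controls from knockouts. Knockout 3 reads low for Neurog3 at -0.69 and Neurod1 at -0.44 and for hormones at -0.41, whereas the islet row follows another order, with 1.97 in control 4 and 0.54 in knockout 2.

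The genes with the most similar profile were named for the 3 members brighter than the median probe set, by Pearson's r of deviations from the group means over 8 samples. For Neurog3 they were Cryzl1 (r = 0.996), Tspan4 (0.994) and Tph1 (0.994). For Neurod1 they were Syt1 (0.995), a calcium sensor of vesicle release, Oxsm (0.993) and Stmn3 (0.991). For Pax4 they were Nsf (0.991), Mob3a and Armc8 (0.986 each). These are the highest of 20304 or 20305 candidates over 8 samples and are given as a description.

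Upstream and parallel genes of the lineage were read from 4 lists, in which 50 of 57 genes had a probe set of their own. None passed: 0 rose and 0 fell, and 6 of 50 (Hes1, Ascl2, Sox9, Rfx3, Runx1t1 and Onecut2) had an unadjusted p under 0.05 beside 7.13% of all probe sets. In 3 of 50 (6.00%), Hes1, Hey1 and Onecut2, the groups did not overlap, beside 4.43% of all probe sets. The median change was -0.035.

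Notch signalling holds progenitors back from the secretory fate, and Hes1 is its main effector and a repressor of Atoh1 and Neurog3. Of 13 measured Notch ligands, receptors and mediators 4 were below 0, with a median of 0.024. The list includes Id1, Id2 and Id3, at 0.10, 0.071 and 0.0060, so the count is not a reading of Notch signalling alone. Hes1 averaged 8.69 ± 0.080 in control and 8.96 ± 0.069 in knockout animals (SD, n = 4 each). The difference of 0.26 did not pass (limma, adjusted p = 0.520). All 4 knockouts read higher than every control, and the change was 0.28 without knockout 3. Hes6 had -0.18 and the ligand Dll4 -0.14.

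All 8 measured secretory commitment factors were below 0, with a median of -0.13, and none passed. This group includes Atoh1, the bHLH factor that opens the secretory lineage, and Gfi1, which acts after it. Atoh1 had only -0.042, and -0.019 without knockout 3, and Gfi1 had -0.12 (adjusted p = 0.946 and 0.826 in limma with all samples). The smallest p values belonged to Ascl2 at -0.30, Sox9 at -0.32 and Bhlha15 at -0.28 (adjusted p = 0.676, 0.684 and 0.709 in limma). Without knockout 3 they had -0.21, -0.20 and -0.38. Ascl2 marks stem cells, Sox9 crypt progenitors and Bhlha15 cells with a large secretory apparatus, so these members are not particular to endocrine cells. Without knockout 3 all 8 were still below 0, with a median of -0.17. Atoh1, Spdef, Sox4, Ascl2 and Sox9 then lay nearer 0, while Gfi1, Klf4 and Bhlha15 lay farther from it, at -0.21, -0.14 and -0.38. Bhlha15 is also abundant in pancreatic acinar cells, whose score was above 0 in controls 1, 2 and 4 and in knockout 3 and below 0 in the other samples, and its part in these values was not tested.

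Of 19 further endocrine differentiation factors 11 were below 0 (median -0.027). Rfx3, a relative of Rfx6, had 0.20, Runx1t1 -0.19 and St18 -0.18 (adjusted p = 0.693, 0.694 and 0.720 in limma). Of 10 gut epithelial factors with endocrine roles 6 were below 0 (median -0.063). Onecut2 had -0.26, and its groups did not overlap (adjusted p = 0.662 in limma). Its change was -0.18 without knockout 3. Gata6 had 0.16 and Onecut1 -0.20.

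**Figure D4:**
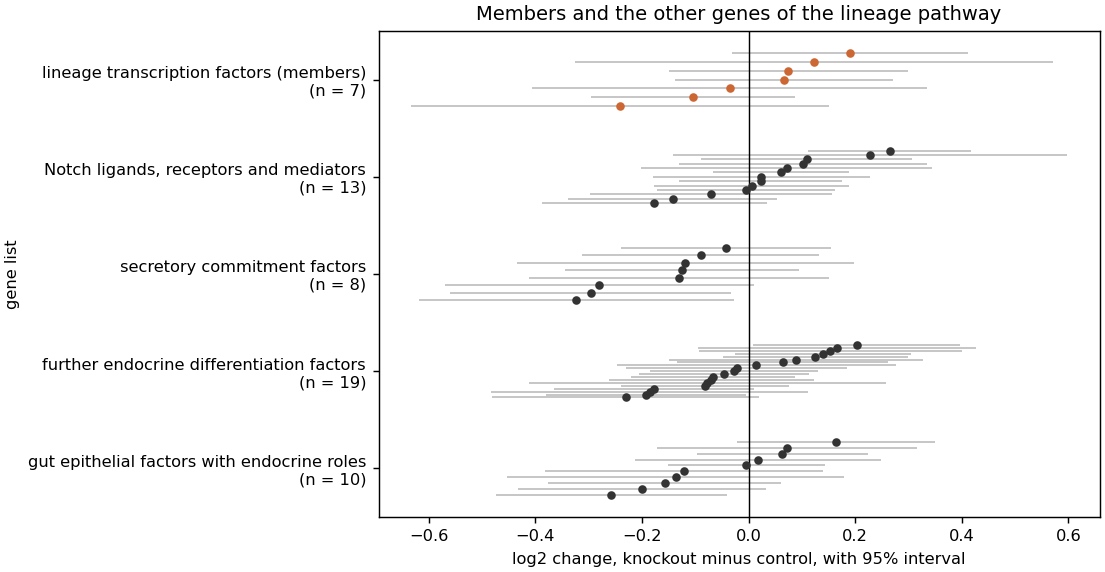
Log2 change, knockout minus control (x axis), with 95% intervals in grey, for the 7 measured members (orange) and 50 other genes of the lineage pathway (dark) in 4 lists (y axis), n = 4 per group. Points lie between -0.32 and 0.26 and the adjusted p of each is 0.520 or higher; the 8 secretory commitment factors all lie left of 0.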

How the data were processed

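Per the labels' protocols, total RNA from tissue kept in RNAlater was amplified to biotin-labelled cRNA by in vitro transcription and hybridised to expression arrays. The authors deposited a table of log2 expression values; the log2 scale was read from the values, which ran from 2.55 to 14.83. The submitters' processing notes list Partek 6.4 without a role. How background, summarisation and normalization were handled is not given in these sources. Of 45101 probe sets 64 array controls were left out. Probe sets were named from GEO's platform annotation: 34945 had 1 symbol, 932 several and 9160 none.

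Knockout was compared with control with limma 3.58.1 (lmFit, then eBayes; R 4.3.3), two-sided, with no filter, covariate or block, and p-values were adjusted over 45037 probe sets (Benjamini-Hochberg); an adjusted p under 0.05 counted as called. Of several probe sets, the one of highest mean stood for a gene. The code was tested on simulated data. For arrays the number of animals limits the precision.

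The members and the gene lists were chosen with earlier results of these data known. Named were all members, Pdx1, up to 3 genes of each lineage list by smallest p, and up to 3 nearest profiles. Gip, Sst, Tph1 and Ins2 were picked from the marker lists after their values were seen. Further genes of the lineage, hormone, islet, neuron and enterocyte lists were also named with their values known. The replicate number was not used as a pairing: correlations of deviations between samples of the same number were -0.089, -0.12, -0.18 and 0.076, while control 2 and knockout 3, of different numbers, had 0.60, the highest of the 16 control-knockout pairs. Plots used matplotlib 3.10.9 (Python 3.11.15). Alternatives were the between-array scaling, a minimum and a floor on dim values, the variance model, array weights, marker scores as covariates, the block, the choice of probe set, the threshold and leaving out each sample.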

Additional observations from a re-analysis of the deposited data

Results flagged for a closer look

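In groups of 4 samples, 7 of 78 group values examined had a sample set apart from the rest by more than Dixon's 95% limit, where chance gives about 1 in 20. Pax4 in knockout 3 read 6.14, far above the other knockouts, and the secretory factor Bhlha15 in the same sample read 7.58. The exocrine pancreas score in knockout 3 was 0.54. The hormone and granule score in control 4 was 0.44, and 0.38 without Gip. The islet score in knockout 2 was 0.54, and the enteric glia score in control 3 was -0.054.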

How the results depend on the processing

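The count of called member probe sets was 0 in 20 of 21 alternatives and the count of called lineage genes 0 in 21 of 22; at an unadjusted p under 0.05 they were 1 and 6. With the replicate number as a block, which the labels do not state as a pairing, 0 member probe sets and 0 lineage genes were called, and over all probe sets 24 were called in place of 19, with 16 in both; 0 of 4 controls had their own number as the closest knockout. Over 134 changes of single members, 122 kept their direction and none was called, with adjusted p of 0.446 or higher, and 12 turned sign. The block, the variance models and the minimum on the mean leave the change itself as it was. Their direction could not turn, so the 122 overstates how stable the directions were. Neurod1, at -0.036, turned to 0.015 with the islet score and to 0.11 with the enteric neuron score as a covariate, and ran from -0.18 to 0.10 with a single sample left out. Pax4 turned to -0.011 with array weights, and ran from -0.090 to 0.21 with a sample left out. Pax6 ran from -0.0088 to 0.14, Neurog3 from -0.35 to -0.051, Insm1 from -0.16 to -0.047, Nkx2-2 from 0.10 to 0.27 and Isl1 from 0.019 to 0.14. With values under 5 set to 5, Nkx2-2 had 0.016, where only control 4 and knockout 4 kept a value above 5. Leaving out control 4 and knockout 3 together, chosen after seeing the data, gave 0.036 for Neurog3, 0.16 for Neurod1 and -0.13 for Pax4. The mean of both Isl1 probe sets had -0.028. With values under 5 set to 5, Insm1 and Pax6 had no value left to compare, and the minimum on the mean left out Insm1, Nkx2-2, Isl1 and Pax6. The causes were not tested. The low signal of most member probe sets limits what a small change could show.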
